A study of Mus musculus with 12 samples.

Results

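Cytochrome P450 enzymes of families 1, 2 and 3 carry out most of the oxidation of drugs and other foreign compounds in the liver. They were taken here as all genes named Cyp followed by the family number 1, 2 or 3, a subfamily letter and a gene number, with the score of a gene being the mean over its transcripts. The rule found 42 genes among the 11587 in the table, in 10 subfamilies: 13 Cyp2c, 9 Cyp2d, 7 Cyp3a, 4 Cyp2a, 3 Cyp2j and 2 Cyp1a genes, and 1 gene each of Cyp2e, Cyp2f, Cyp2r and Cyp2u. Their 58 transcripts all had values, 29 genes having a single transcript, and none was filtered out. The livers came from 3 Maf1 KO and 3 wild-type C57BL/6 mice, sacrificed at 9 PM, aged 12 to 14 weeks and refed per the labels, or aged 12 weeks and fed ad libitum per the study's methods. MAF1 represses RNA polymerase III, and the KO is of the whole body. From each liver extract, ribosome footprints, the stretches of mRNA that a ribosome shields from RNase I, were sequenced in parallel with fragments of total RNA, which gave 12 libraries. The question was whether levels or translation of these mRNAs differed between Maf1 KO and wild-type livers.

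A P450 enzyme holds a heme group through a conserved cysteine, receives electrons from NADPH-cytochrome P450 reductase in the membrane of the endoplasmic reticulum, and inserts an oxygen atom into its substrate. Family 1 genes are known targets of the aryl hydrocarbon receptor, Cyp2b, Cyp2c and Cyp3a genes of the receptors CAR (Nr1i3) and PXR (Nr1i2), and Cyp2d genes are known to depend on HNF4A. Mouse subfamilies lie in clusters of recent duplicates, so that a short tag can match several genes. In the liver many members are made mainly by hepatocytes around the central vein, and several differ between the sexes. The Y-linked genes Ddx3y, Eif2s3y, Kdm5d and Uty were scored in all 6 mice. Their summed total RNA level was 11.79 to 12.37 in Maf1 KO livers versus 12.23 to 12.31 in wild-type livers (log2). No Cyp2b gene was among the members analysed, and Maf1 itself was not analysed here.

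The coding sequence around the heme-binding loop, the most conserved stretch of the enzyme, shows how alike some of these genes can be. Likeness in this stretch is not likeness over the whole gene. Cyp2d22 and Cyp2d26 are identical in the 60 bases described next but 78.45% identical over the coding sequence. Windows of 60 coding bases centred on the 30 bases that encode the loop were read from GENCODE vM1 (genome build NCBIM37, the same as mm9) for the genes in which the loop's signature of phenylalanine, glycine, arginine, cysteine and glycine was found (40 of 41 matched genes). The Cyp3a windows lie within 1 coding exon each on chromosome 5, at chr5:146670366-146670425 for Cyp3a11 (minus strand), chr5:146201295-146201354 for Cyp3a16 (minus strand), chr5:146589566-146589625 for Cyp3a44 (minus strand), chr5:146793029-146793088 for Cyp3a25 (minus strand), chr5:146147861-146147920 for Cyp3a57 (plus strand) and chr5:138336480-138336539 for Cyp3a13 (minus strand). They are shown because most Cyp3a genes lay higher in Maf1 KO livers and Cyp3a13 did not. Capitals mark bases that differ from Cyp3a11.
Cyp3a11: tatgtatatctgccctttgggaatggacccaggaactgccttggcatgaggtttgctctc
Cyp3a16: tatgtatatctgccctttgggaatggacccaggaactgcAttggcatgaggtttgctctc
Cyp3a44: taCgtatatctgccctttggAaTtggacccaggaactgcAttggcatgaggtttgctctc
Cyp3a25: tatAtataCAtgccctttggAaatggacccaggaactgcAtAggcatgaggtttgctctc
Cyp3a57: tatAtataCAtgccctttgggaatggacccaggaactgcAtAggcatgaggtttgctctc
Cyp3a13: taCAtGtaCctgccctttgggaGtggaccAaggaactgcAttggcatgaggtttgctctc

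Cyp3a16 differed from Cyp3a11 by 1 base in this window, Cyp3a44 by 4, Cyp3a57 by 5, Cyp3a25 by 6 and Cyp3a13 by 7. The order differs over the coding sequence, where Cyp3a44 is 94.92% identical to Cyp3a11, Cyp3a16 92.81% and Cyp3a57 75.33%. The Cyp2a windows on chromosome 7 are joined across the last intron, at chr7:27626864-27627931 for Cyp2a5, chr7:27098691-27099756 for Cyp2a4 and chr7:27820447-27821518 for Cyp2a12 (plus strand) and chr7:27717517-27718522 for Cyp2a22 (minus strand). They are shown because the subfamily fell into pairs on opposite sides of 0 in total RNA. Capitals mark bases that differ from Cyp2a5.
Cyp2a5: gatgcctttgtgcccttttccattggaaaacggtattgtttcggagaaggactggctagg
Cyp2a4: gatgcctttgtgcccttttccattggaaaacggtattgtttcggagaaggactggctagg
Cyp2a12: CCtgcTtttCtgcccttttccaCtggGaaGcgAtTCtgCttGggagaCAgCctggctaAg
Cyp2a22: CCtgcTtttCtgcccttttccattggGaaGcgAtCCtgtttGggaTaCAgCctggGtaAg

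The Cyp2a4 window was identical to that of Cyp2a5, and those of Cyp2a12 and Cyp2a22 differed from it by 16 bases each. The Cyp2c genes on chromosome 19 showed the same kind of subdivision. Their windows, again joined across the last intron, lie at chr19:40084422-40086251 for Cyp2c37, chr19:40185883-40187958 for Cyp2c50, chr19:39403711-39404776 for Cyp2c29 and chr19:39641494-39642537 for Cyp2c39 (plus strand) and chr19:39841946-39848338 for Cyp2c40 (minus strand), with capitals for bases that differ from Cyp2c37. Cyp2c37 with Cyp2c50, Cyp2c39, and Cyp2c40 stand for the 3 groups of near copies described below. Cyp2c29, the most abundant Cyp2c gene, belongs to none of these groups.
Cyp2c37: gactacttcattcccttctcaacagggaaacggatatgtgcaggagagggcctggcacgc
Cyp2c50: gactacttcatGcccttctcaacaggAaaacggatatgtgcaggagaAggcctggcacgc
Cyp2c29: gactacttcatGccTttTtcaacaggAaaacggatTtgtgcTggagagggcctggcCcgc
Cyp2c39: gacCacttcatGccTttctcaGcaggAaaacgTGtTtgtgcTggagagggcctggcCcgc
Cyp2c40: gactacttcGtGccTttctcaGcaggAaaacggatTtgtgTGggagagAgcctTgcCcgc

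Cyp2c40, Cyp2c67 and Cyp2c69 had identical windows. In the Cyp2d cluster on chromosome 15 genes of very different abundance are nearly alike in this window, though not every abundant member is a near copy, Cyp2d26 and Cyp2d10 being 82.0% identical over the coding sequence. The windows are those of the abundant Cyp2d9 at chr15:82286881-82287040 (plus strand), Cyp2d10 at chr15:82233492-82233651 and the scarce Cyp2d34 at chr15:82446608-82446767 (minus strand), with capitals for bases that differ from Cyp2d9.
Cyp2d9: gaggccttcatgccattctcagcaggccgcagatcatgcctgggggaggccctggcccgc
Cyp2d10: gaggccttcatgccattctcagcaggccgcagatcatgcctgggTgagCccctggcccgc
Cyp2d34: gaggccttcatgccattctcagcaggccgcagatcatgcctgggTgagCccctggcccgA

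Over whole coding sequences, 25 of the 41 matched members had at least 50% of their 28-base words (28 bases being about the length of a footprint) in another gene when up to 1 mismatch was allowed, as in the alignment of the tags. The median member shared 63.8% of its words, or 34.4% without a mismatch. Cyp2a5 shared 94.9%, almost all with Cyp2a4, and Cyp2c68 shared 95.8%. Cyp3a11 shared 81.7%, most of it with Cyp3a41a (67%), a gene outside the rule for its trailing letter, and with Cyp3a44. Among the others, 8 members shared under 10%: Cyp2e1, Cyp2r1 and Cyp2u1 shared none, and Cyp2f2 (0.07%), Cyp2c44 (1.1%), Cyp2c70 (3.3%), Cyp3a13 (4.1%) and Cyp2c55 (6.1%) little. No source used here says how the authors assigned tags that match several genes, so scores of near copies are uncertain as separate measurements. Among them was Cyp2d11, whose transcripts differed by up to 1.36 in total RNA, the higher one lying at most 0.0428 from Cyp2d10 over the 6 total RNA libraries and at most 0.32 over the footprint libraries.

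**Figure D1:**
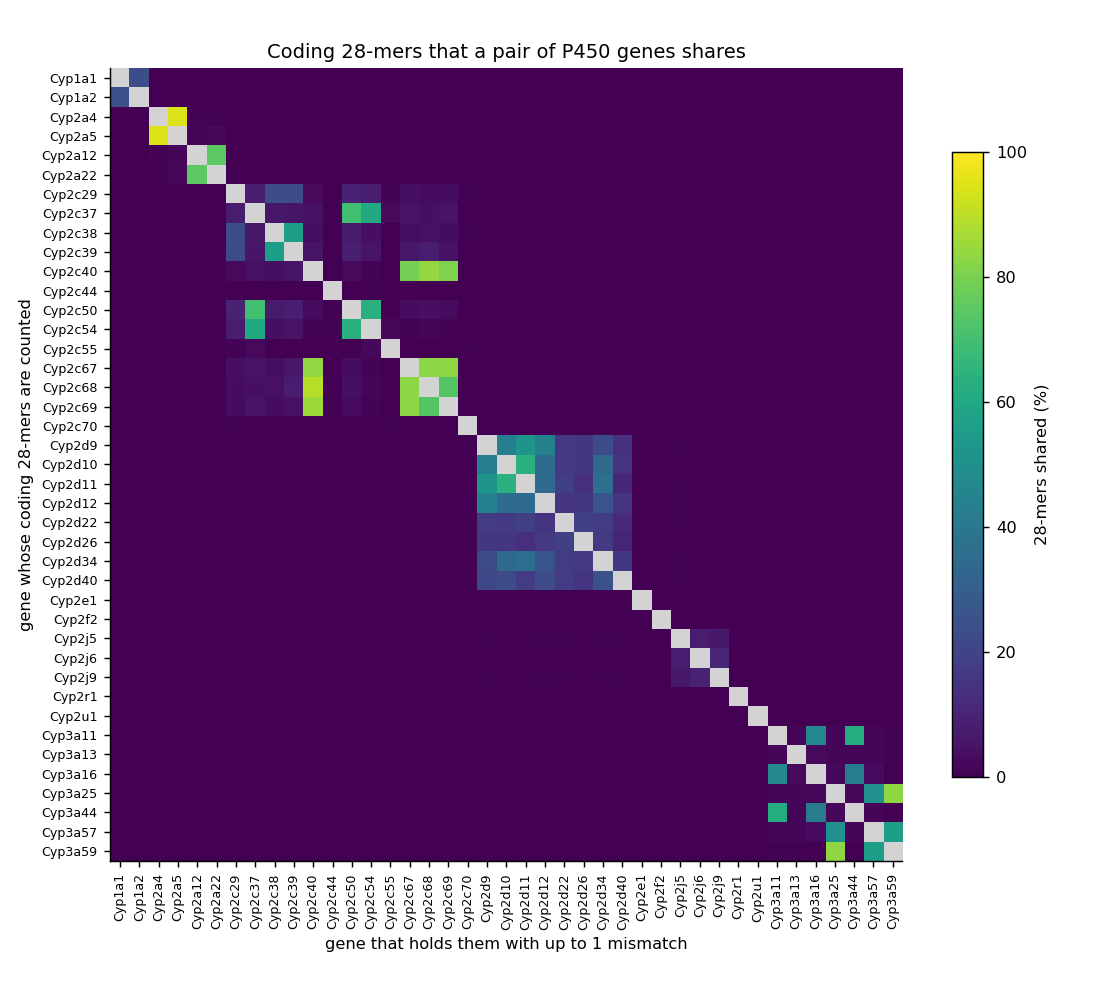
Percent of the coding 28-base words of each gene (row) that occur with up to 1 mismatch in each other gene (column), for the 41 matched members. Blocks on the diagonal are the subfamilies: Cyp2a4 and Cyp2a5, the set Cyp2c40, Cyp2c67, Cyp2c68 and Cyp2c69, and Cyp3a25 and Cyp3a59 stand out, while Cyp2e1, Cyp2f2, Cyp2r1 and Cyp2u1 have no partner.

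These genes were among the most abundant mRNAs of the liver. Scores are log2 normalized tag counts, and 40 of the 42 members lay above the median of all genes in total RNA and 39 in footprints. Per kilobase of coding sequence, the scale on which genes can be compared, Cyp2e1, which oxidizes ethanol and acetaminophen, was the highest member in total RNA, at 17.09 ± 0.32 in Maf1 KO livers versus 17.40 ± 0.26 in wild-type livers (log2 score per kb, SD, n = 3 each). Cyp3a11, the main drug-oxidizing Cyp3a enzyme of mouse liver, came next at 16.42 ± 0.18 in Maf1 KO livers versus 16.02 ± 0.24 in wild-type livers. They were the 2 members within the top 1% of the 10851 genes with a coding length, and 24 members lay within the top 10%. Below them came the steroid hydroxylase Cyp2d9 (14.56 ± 0.28 in Maf1 KO livers, 14.84 ± 0.24 in wild-type livers), Cyp2c29 (14.78 ± 0.24 in Maf1 KO livers, 14.53 ± 0.43 in wild-type livers) and the naphthalene oxidase Cyp2f2 (14.32 ± 0.14 in Maf1 KO livers, 14.38 ± 0.14 in wild-type livers), neighbors in this order not differing beyond their spread. In wild-type livers the other abundant members lay between Cyp2d10 at 14.15 and Cyp3a59 at 11.88, each differing from the next by less than the larger SD of the pair. The lowest were Cyp2r1, a vitamin D hydroxylase, at 8.64 ± 0.57 in Maf1 KO livers versus 8.70 ± 0.05 in wild-type livers, Cyp2j9 at 8.26 ± 0.14 in Maf1 KO livers versus 7.64 ± 0.48 in wild-type livers, and Cyp2c55 at 6.81 ± 0.77 in Maf1 KO livers versus 5.91 ± 0.51 in wild-type livers.

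**Figure D2:**
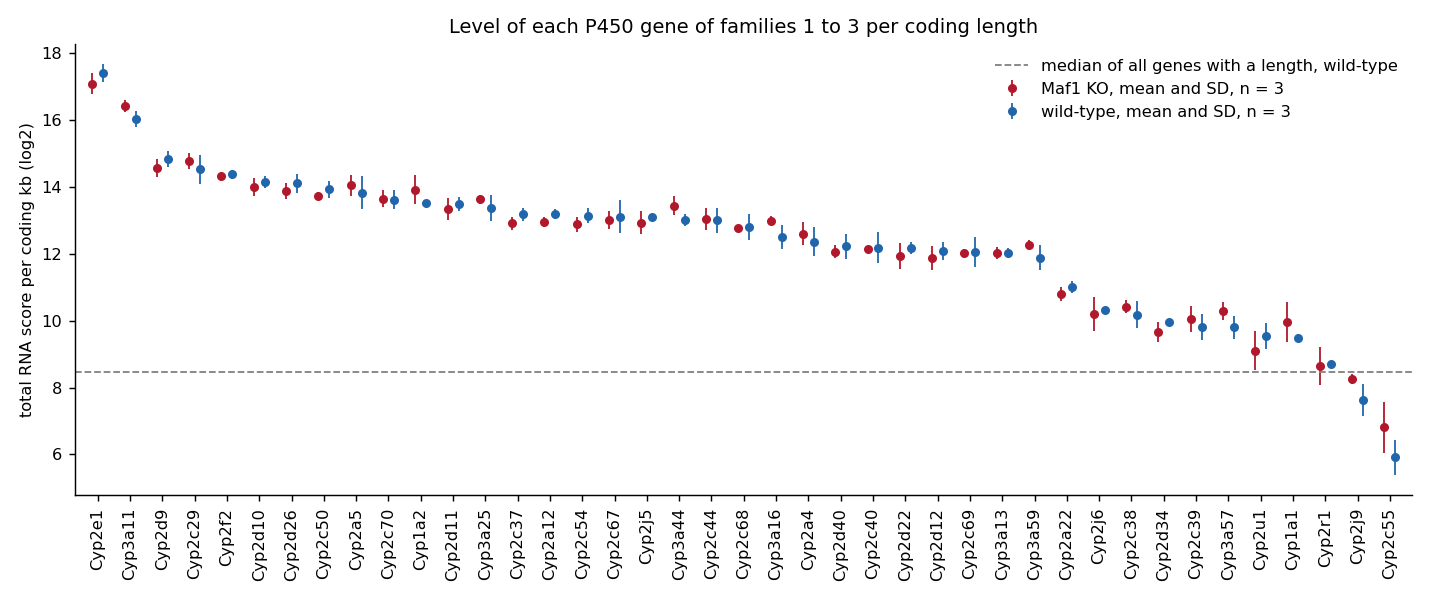
Total RNA score per kilobase of coding sequence (log2) of the 41 members with a coding length, ordered by the level in wild-type livers. Points and bars are mean and SD of 3 mice, and the dashed line is the median over all genes with a length. Cyp2e1 and Cyp3a11 stand above the others, and Cyp2j9 and Cyp2c55 lie below the line.

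Library medians set the background for every comparison. In total RNA they were 8.75 to 9.34 in Maf1 KO livers versus 8.83 to 9.04 in wild-type livers, and in footprints 7.17 to 7.57 in Maf1 KO livers versus 7.37 to 8.02 in wild-type livers. KO1 had the highest median in total RNA and the lowest in footprints, and WT3 the highest in footprints, so the translation efficiency of a mouse, its footprint score minus its total RNA score, had its lowest median in KO1 (−2.01) and its highest in WT3 (−0.64). Differences are therefore given as deposited and after centering each library on its median, and results that turn on KO1 or WT3 are given without them. A fixed amount of material from a Drosophila cell line had been added to each extract so that a change of all genes could be measured, and centering removes such a change.

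No member passed the threshold between Maf1 KO and wild-type livers in any measure (limma, adjusted p under 0.05 over 11587 genes). Of all genes, 0.276% passed in total RNA, 0.0863% for footprints and 0.0173% for translation efficiency. After centering, 0.0173% of all genes passed in total RNA, 0% for footprints and 0% for translation efficiency. The lowest adjusted p of a member in total RNA was 0.445, that of Cyp2c55. At an unadjusted limma p under 0.05, 3 members were higher and 0 lower in total RNA as deposited, where 2.5% and 1.1% of all genes were. In footprints 0 members were higher or lower (0.406% and 2.08% of all genes), and in translation efficiency 0 were higher and 1 lower (0.19% and 0.837% of all genes). After centering, 7 members were higher and 3 lower in total RNA (4.7% and 3.78% of all genes). For centered footprints 0 members were higher or lower (2.08% and 1.92% of all genes), and for centered translation efficiency 0 were higher and 1 lower (1.25% and 1.75% of all genes). What follows is a description of values that did not pass the test, and p-values rest only on spread between these mice. On the deposited scale that spread was pooled over genes of like level, so SE and p do not measure a gene's own spread. In total RNA the SE was 0.24 for both Cyp1a2 and Cyp2a5, with wild-type SDs of 0.04 and 0.49. With 3 mice against 3, an exact permutation test of a single value cannot go below 0.1.

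In total RNA the subfamilies took different sides. Of the 7 Cyp3a genes, 6 had a higher mean in Maf1 KO livers and Cyp3a13 a difference of −0.0017, both Cyp1a genes had a higher mean, and all 9 Cyp2d genes and Cyp2e1 a lower one. These signs were the same as deposited, centered and without KO1 and WT3 as deposited, and under quantile normalization, except that Cyp3a13 was then above 0 (0.08). The medians were 0.40 for Cyp3a, 0.44 for Cyp1a and −0.23 for Cyp2d, against −0.06 for all members and 0.00 for all genes. Without KO1 and WT3 they were 0.35, 0.13 and −0.49, against −0.23 for all genes. Cyp2a and Cyp2c were split, with 2 of 4 and 6 of 13 genes above 0 (2 and 5 after centering, 2 and 9 under quantile normalization).

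Cyp3a11 scored 17.22, 16.99 and 16.86 in total RNA of Maf1 KO livers versus 16.35, 16.79 and 16.74 in wild-type livers. Every Maf1 KO liver lay above every wild-type liver, and the difference was 0.40 (SE 0.24). Cyp3a16 scored 13.75, 13.48 and 13.53 in Maf1 KO livers versus 12.69, 13.28 and 13.34 in wild-type livers, a difference of 0.48 (SE 0.24). Cyp3a44, in the adult a gene of female liver, scored 14.37, 13.92 and 13.83 in Maf1 KO livers versus 13.39, 13.71 and 13.69 in wild-type livers, a difference of 0.44 (SE 0.24). The genotypes did not overlap for either gene, but both share many of their words with Cyp3a11, so the 3 are not separate evidence. Cyp3a57 scored 11.19, 10.79 and 10.67 in Maf1 KO livers versus 10.02, 10.70 and 10.49 in wild-type livers, the lowest Maf1 KO liver lying just below the highest wild-type liver. Cyp3a25 differed by 0.26 (SE 0.24) and Cyp3a59 by 0.39. Cyp3a13, which shares few words with the others and is found in many tissues, scored 12.82, 12.46 and 12.55 in Maf1 KO livers versus 12.45, 12.68 and 12.71 in wild-type livers. WT1 was the lowest mouse for all 7 Cyp3a genes in total RNA and footprints after centering, and without it the centered Cyp3a median in total RNA was 0.22, against 0.38 with all mice.

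Cyp1a2, which oxidizes caffeine and aromatic amines, scored 15.01, 14.45 and 14.18 in total RNA of Maf1 KO livers versus 14.14, 14.19 and 14.12 in wild-type livers. KO1 and KO2 lay above all wild-type livers, KO4 lay among them, and the difference was 0.39 (SE 0.24). Cyp1a1 scored 11.27, 10.48 and 10.08 in Maf1 KO livers versus 10.26, 10.07 and 10.07 in wild-type livers, with a difference of 0.48 (SE 0.26). As deposited the differences without KO1 were 0.15 for Cyp1a1 and 0.16 for Cyp1a2, and the median of all genes was then −0.17. After centering, the Cyp1a median was 0.32 without KO1, against 0.42 with all mice.

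Cyp2e1 scored 18.02, 17.53 and 17.42 in total RNA of Maf1 KO livers versus 17.68, 18.17 and 18.06 in wild-type livers, a difference of −0.31 (SE 0.24), with KO1 among the wild-type livers. Cyp2d9 scored 15.46, 15.11 and 14.91 in Maf1 KO livers versus 15.37, 15.71 and 15.24 in wild-type livers, a difference of −0.28 (SE 0.24). Cyp2d34 scored 10.57, 9.99 and 10.18 in Maf1 KO livers versus 10.61, 10.57 and 10.54 in wild-type livers, and KO2 and KO4 lay below all wild-type livers. Across the 9 Cyp2d genes the differences ran from −0.32 in Cyp2d34 to −0.14 in Cyp2d11. Cyp2f2, known from the hepatocytes around the portal vein, scored 15.03, 14.76 and 14.85 in Maf1 KO livers versus 14.90, 15.10 and 14.84 in wild-type livers, a difference of −0.07 (SE 0.24).

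**Figure D3:**
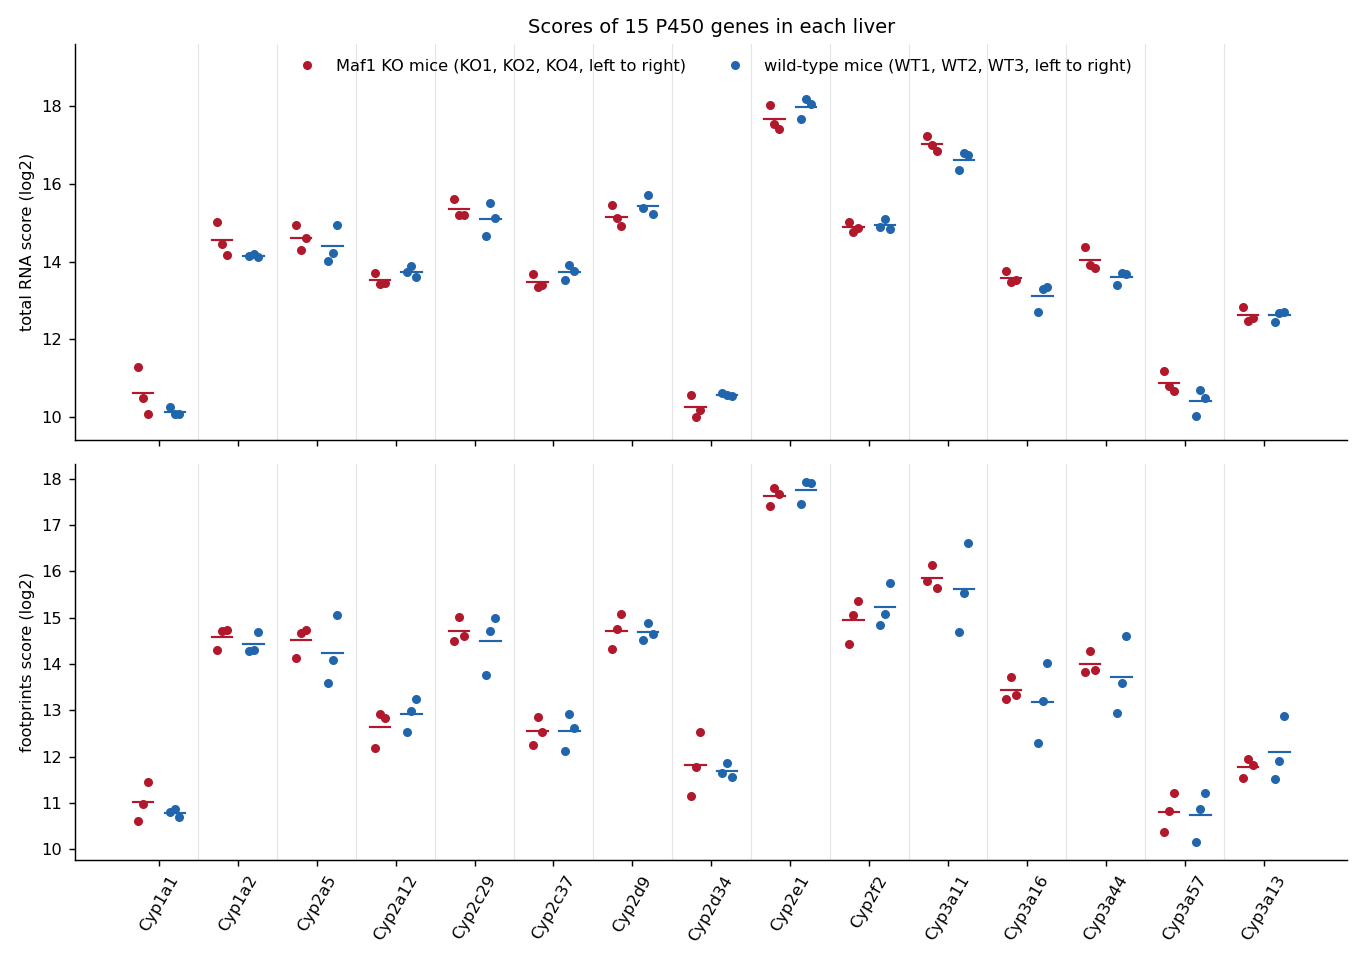
Scores (log2 normalized tag counts, as deposited) of 15 members in total RNA (top) and footprints (bottom), a point per mouse and a bar at the group mean. In total RNA the Maf1 KO points of Cyp3a11, Cyp3a16 and Cyp3a44 lie above all wild-type points, while in footprints WT3 is the highest mouse for these genes.

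Within the split subfamilies near copies lay on the same side of 0 in total RNA. Cyp2a5, which hydroxylates coumarin and nicotine, scored 14.93, 14.30 and 14.61 in total RNA of Maf1 KO livers versus 14.01, 14.22 and 14.95 in wild-type livers, and its near copy Cyp2a4 differed by 0.24, close to the 0.22 of Cyp2a5. Cyp2a12 and Cyp2a22 differed by −0.22 and −0.19. Among the Cyp2c genes, the near copies Cyp2c37, Cyp2c50 and Cyp2c54 differed by −0.27 to −0.19, Cyp2c38 and Cyp2c39 by 0.23 and 0.25, and Cyp2c40, Cyp2c67, Cyp2c68 and Cyp2c69 by −0.10 to −0.02. Cyp2c29, an epoxygenase of arachidonic acid and the most abundant Cyp2c gene, scored 15.62, 15.19 and 15.21 in Maf1 KO livers versus 14.64, 15.51 and 15.11 in wild-type livers, a difference of 0.25 (SE 0.24) within the range of the wild-type livers. Cyp2c70, the mouse enzyme of muricholic acid synthesis, differed by 0.02 and shares few words. When genes that share at least 40% of their words were linked, a limit set after the values were seen, 23 members fell into 8 groups of 2 to 4 genes. In each of the 8 groups all genes lay on the same side of 0 after centering in total RNA and in footprints, and in 5 of the 8 in translation efficiency. At this limit the members form 27 groups, and since near copies can share tags, they are not 42 separate measurements. Nor are the groups fully separate, as Cyp2d34 had 37.1% of its words in Cyp2d11 of another group. The part of shared tags in the likeness was not tested.

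Across all members, 4 (Cyp2j9, Cyp3a11, Cyp3a16 and Cyp3a44) had every Maf1 KO liver above every wild-type liver in total RNA, where 4.07% of all genes did, and 0 had every one below, where 1.42% did. After centering, 4 lay above without overlap (Cyp1a2, Cyp2j9, Cyp3a44 and Cyp3a57, with 6.92% of all genes), and 6 lay below (Cyp2a12, Cyp2a22, Cyp2d9, Cyp2d13, Cyp2d34 and Cyp2j5, with 7.03% of all genes). In percent of the members these counts are 9.52% and 0% as deposited, and 9.52% and 14.3% after centering, with near copies counted separately. The epoxygenase Cyp2j5 was the most abundant Cyp2j gene and differed by −0.17, and the fatty acid hydroxylase Cyp2u1 by −0.43 (SE 0.26). The largest differences were found in low members and are named here after their values were seen. Cyp2c55 scored 8.10, 6.57 and 7.42 in Maf1 KO livers versus 6.15, 6.20 and 7.06 in wild-type livers, so that KO2 lay within the range of the wild-type livers, with a difference of 0.90 (SE 0.31). Cyp2j9 scored 9.09, 8.88 and 8.81 in Maf1 KO livers versus 7.79, 8.73 and 8.39 in wild-type livers, with a difference of 0.62 (SE 0.28).

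Shares of the summed level do not depend on how a library was scaled. When levels per kilobase were summed on the linear scale over the 41 members with a length, Cyp3a genes made up 23.2%, 25.3% and 24.6% of the P450 total RNA in Maf1 KO livers, and 17.0%, 18.0% and 19.7% in wild-type livers (24.4% ± 1.09 in Maf1 KO livers versus 18.3% ± 1.35 in wild-type livers, SD, n = 3 each). Cyp2e1 alone made up 27.8%, 25.6% and 25.0% in Maf1 KO livers versus 29.5%, 31.6% and 33.5% in wild-type livers. The genotypes did not overlap for either share. All shares are parts of the same sum, so a higher share of a subfamily lowers the others, and they are not separate observations. The total RNA score of Cyp2e1 itself overlapped between the genotypes as deposited. Cyp1a genes made up 3.11% ± 0.44 in Maf1 KO livers versus 2.29% ± 0.30 in wild-type livers, without overlap. Cyp2d genes made up 14.8% ± 0.63 in Maf1 KO livers versus 16.7% ± 1.99 in wild-type livers, and Cyp2c genes 19.7% ± 0.98 in Maf1 KO livers versus 19.4% ± 1.71 in wild-type livers, with overlap. For the pair of most abundant genes, compared in total RNA of the same library, Cyp3a11 minus Cyp2e1 was −0.80, −0.54 and −0.57 in Maf1 KO livers versus −1.33, −1.39 and −1.32 in wild-type livers, on the log2 scale without correction for length. The spread was 0.14 in Maf1 KO livers versus 0.03 in wild-type livers (SD), and the gap between the genotypes 0.71. In footprints Cyp3a11 minus Cyp2e1 was −1.63, −1.66 and −2.03 in Maf1 KO livers versus −2.76, −2.39 and −1.30 in wild-type livers, with overlap and with WT3 the highest mouse. No test was made of these shares, which were read after the differences of the genes were known. Many words of Cyp3a11 also occur in Cyp3a41a and Cyp3a44, and how such tags were assigned is not known. The share may therefore belong to these near copies together.

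**Figure D4:**
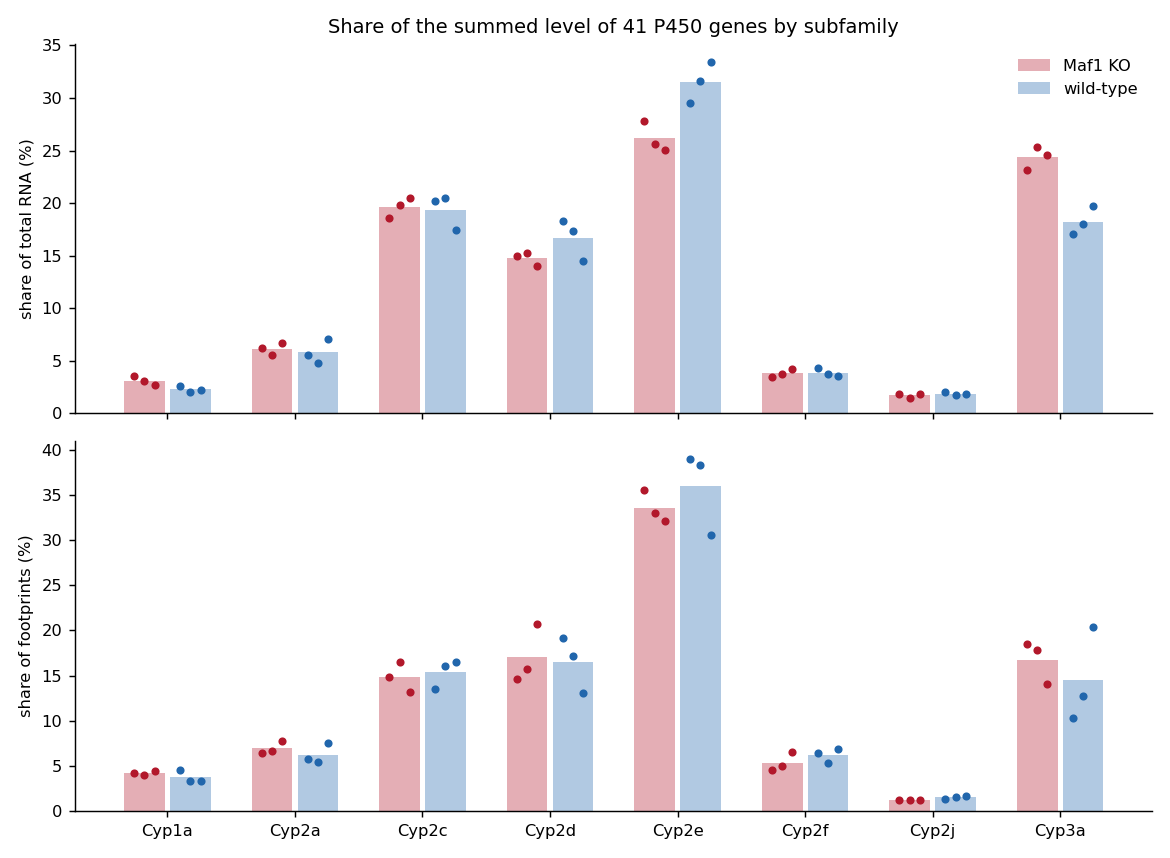
Share of each subfamily in the summed linear level per coding kilobase of 41 members, in total RNA (top) and footprints (bottom). Bars are means of 3 mice and points single mice. The Cyp3a share of total RNA is 23.2% to 25.3% in Maf1 KO livers versus 17.0% to 19.7% in wild-type livers, and in footprints the range of the wild-type livers, 10.3% to 20.3%, holds all Maf1 KO livers.

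In footprints the wild-type livers were spread widely, and the genotypes overlapped for the shares of Cyp3a and Cyp2e1. The Cyp3a share of P450 footprints was 18.5%, 17.8% and 14.0% in Maf1 KO livers versus 10.3%, 12.7% and 20.3% in wild-type livers, WT3 being the highest of all. Without KO1 and WT3 the remaining Maf1 KO livers lay above the remaining wild-type livers. Only WT3 made the overlap, so this separation follows from leaving WT3 out and adds no support. The Cyp2e1 share was 35.5%, 33.0% and 32.1% in Maf1 KO livers versus 39.0%, 38.4% and 30.6% in wild-type livers, with WT3 the lowest. Cyp3a11 footprints scored 15.79, 16.14 and 15.63 in Maf1 KO livers versus 14.69, 15.54 and 16.61 in wild-type livers, a difference of 0.24 (SE 0.44). Cyp3a44 footprints scored 13.82, 14.28 and 13.87 in Maf1 KO livers versus 12.94, 13.60 and 14.60 in wild-type livers, a difference of 0.28 (SE 0.40). With the replicate numbers 1 and 2 as a block, which leaves out KO4 and WT3, 2.45% of all genes passed in footprints. Among them were 2 members, Cyp3a11 and Cyp3a44, though it is not known whether the numbers pair the mice.

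Across the members, the median difference in footprints was −0.0050 as deposited, against −0.18 for all genes, and 0.18 after centering, against 0.01. Without KO1 and WT3 it was 0.24 as deposited, with 37 of 42 members above 0, against 0.16 for all genes. After centering, 27 of 42 members were above 0, as were 51.2% of all genes, and as deposited 21 of 42 against 21.7%. Cyp1a2 and Cyp2a4 had every Maf1 KO liver above every wild-type liver after centering (4.83% of all genes) and Cyp2u1 every one below (4.26%). Cyp2a5 footprints scored 14.14, 14.67 and 14.73 in Maf1 KO livers versus 13.59, 14.08 and 15.06 in wild-type livers, a centered difference of 0.46. Cyp2u1 footprints scored 7.89, 8.22 and 8.41 in Maf1 KO livers versus 8.44, 8.73 and 8.96 in wild-type livers, a difference of −0.54 (SE 0.35). The centered differences of Cyp2c67 and Cyp2c69 were −0.22 and −0.24, and that of Cyp3a25 was 0.48.

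**Figure D5:**
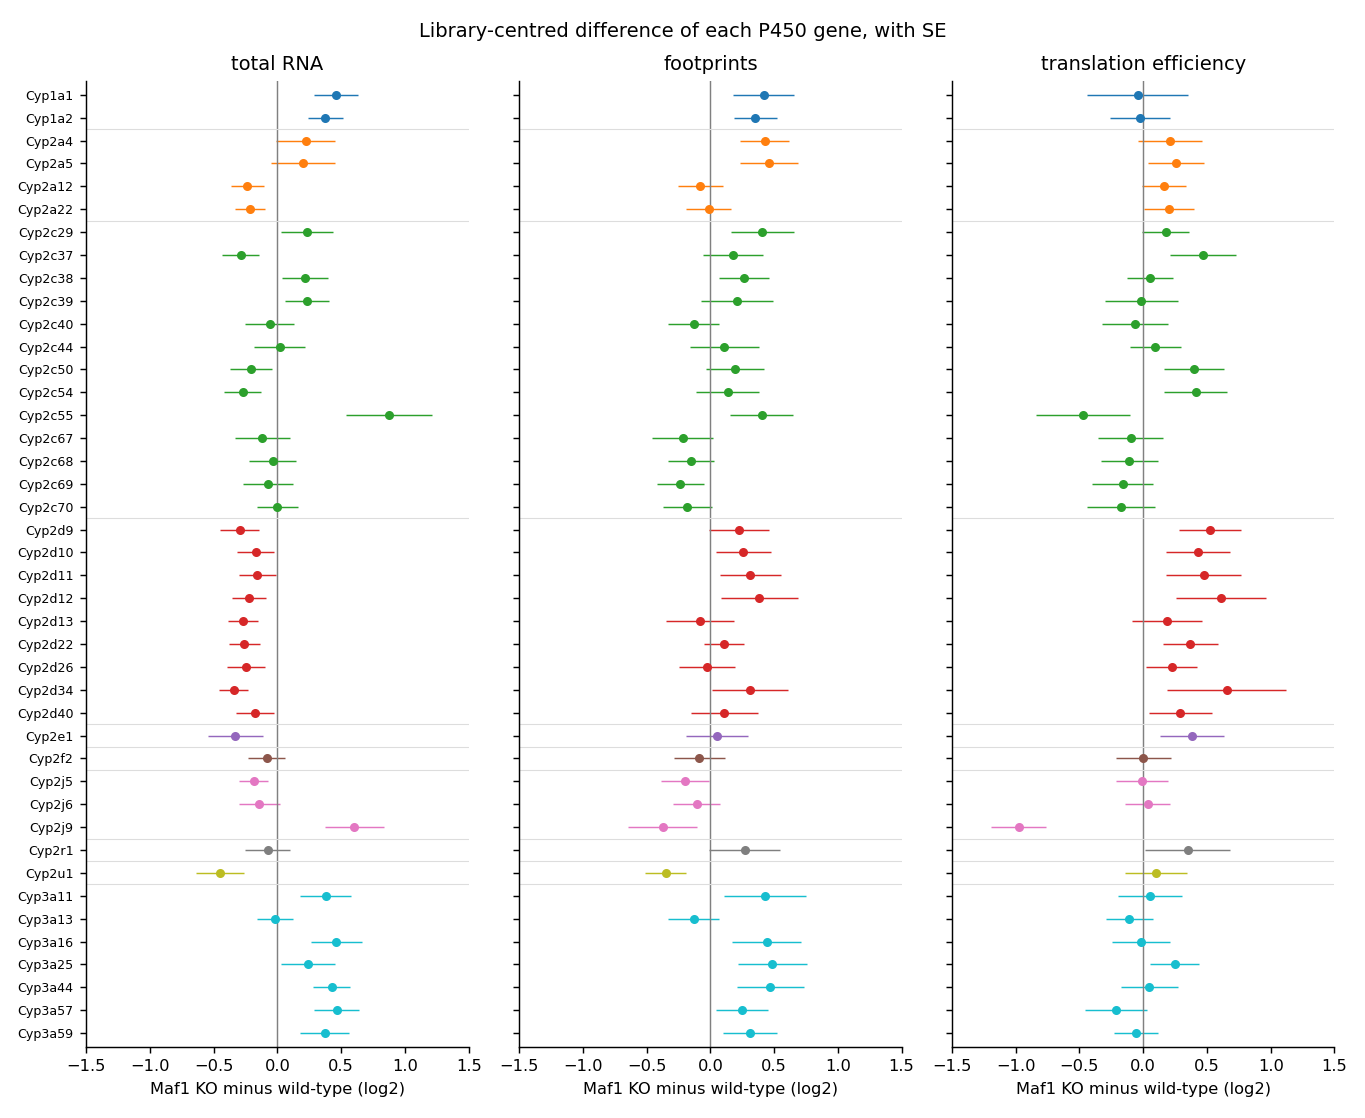
Library-centered difference, Maf1 KO minus wild-type (log2), of the 42 members in total RNA, footprints and translation efficiency, with the SE from limma, colored by subfamily. In total RNA all 9 Cyp2d genes lie left of 0 and 6 of 7 Cyp3a genes right of it, and in translation efficiency all 9 Cyp2d genes lie right of 0.

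Translation efficiency of these mRNAs was high in both genotypes, but this was not particular to families 1 to 3. After centering, the median of the 23 P450 genes of other families was 0.79, 0.97 and 1.08 in KO1, KO2 and KO4. It was 0.84, 0.96 and 0.68 in WT1, WT2 and WT3. The centered medians of the members were 0.88, 0.83 and 0.75 in the Maf1 KO livers and 0.66, 0.74 and 0.70 in the wild-type livers. The median member lay above the median of all genes in every mouse, at −1.13, −0.21 and −0.38 against −2.01, −1.04 and −1.13 in KO1, KO2 and KO4, and at −0.83, −0.69 and 0.07 against −1.49, −1.44 and −0.64 in WT1, WT2 and WT3. Of the 42 members, 32 lay above the library median in all 6 mice, where 33.1% of all genes did, and 2, Cyp2r1 and Cyp2j9, lay below it in all 6, where 34.5% did. The highest were Cyp2d34, 2.96 ± 0.46 above the library median in Maf1 KO livers versus 2.30 ± 0.58 in wild-type livers, Cyp2c39 (1.88 ± 0.30 in Maf1 KO livers, 1.90 ± 0.24 in wild-type livers) and Cyp1a1 (1.80 ± 0.62 in Maf1 KO livers, 1.84 ± 0.52 in wild-type livers). The abundant Cyp2e1 stood at 1.37 ± 0.05 in Maf1 KO livers versus 0.98 ± 0.43 in wild-type livers, Cyp1a2 at 1.44 ± 0.22 in Maf1 KO livers versus 1.46 ± 0.22 in wild-type livers, and Cyp2f2 at 1.47 ± 0.15 in Maf1 KO livers versus 1.47 ± 0.07 in wild-type livers. Cyp3a11 stood near the median, at 0.23 ± 0.34 in Maf1 KO livers versus 0.18 ± 0.34 in wild-type livers, and Cyp3a25 at −0.06 ± 0.18 in Maf1 KO livers versus −0.31 ± 0.16 in wild-type livers. The near copies of Cyp3a11 stood higher, Cyp3a16 at 1.24 ± 0.29 in Maf1 KO livers versus 1.26 ± 0.14 in wild-type livers and Cyp3a44 at 1.35 ± 0.15 in Maf1 KO livers versus 1.30 ± 0.25 in wild-type livers. Cyp2r1 was the lowest member in wild-type livers, at −0.72 ± 0.49 in Maf1 KO livers versus −1.07 ± 0.50 in wild-type livers. Near copies can exchange tags in either kind of library, so these ratios are uncertain for genes that share words.

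Between the genotypes, the median difference in translation efficiency was −0.11 for the members and −0.19 for all genes as deposited, and 0.10 and 0.02 after centering. All 9 Cyp2d genes were above 0 after centering (median 0.43), also without KO1 and WT3 (0.37), and 8 of 9 as deposited (median 0.22). The spread was not even: WT3 was the lowest mouse for all 9 genes, KO4 the highest for 7, and without KO4 the centered median was 0.20 and the median as deposited −0.14. Cyp2d9 had a translation efficiency of −1.13, −0.36 and 0.17 in Maf1 KO livers versus −0.85, −0.83 and −0.58 in wild-type livers, as deposited, and Cyp2d12 of −1.03, 0.08 and 1.18 in Maf1 KO livers versus −0.66, −0.33 and 0.02 in wild-type livers. The genotypes overlapped for both on that scale. After centering, Cyp2d9, Cyp2d10, Cyp2d22 and Cyp2e1 had every Maf1 KO liver above every wild-type liver, where 3.8% of all genes did, and Cyp2j9 every one below, where 3.56% did. Cyp2j9 stood at −1.41 ± 0.17 in Maf1 KO livers versus −0.43 ± 0.23 in wild-type livers, a centered difference of −0.98 (adjusted p = 0.999), with low scores in both libraries. Cyp3a differences went both ways after centering, with 3 genes above and 4 below 0 (median −0.02), between −0.22 in Cyp3a57 and 0.25 in Cyp3a25, and the median as deposited was −0.23. The centered differences of Cyp2c69 and Cyp2c70 were −0.16 and −0.17.

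The other genes of the pathway were taken as lists. Of 8 electron donors and heme-carrying partners, 7 were scored and 0 passed in either direction in any measure, with 5 above and 2 below 0 in total RNA. Por, the reductase that feeds electrons to all these enzymes, scored 13.53, 12.84 and 13.13 in total RNA of Maf1 KO livers versus 13.35, 13.52 and 13.78 in wild-type livers, with KO2 and KO4 below all wild-type livers, and differed by −0.39 (SE 0.24). All 12 genes of heme synthesis and breakdown were scored and 0 passed, 6 lying above and 6 below 0. Alas1, the first and rate-limiting step of heme synthesis, differed by −0.29 (SE 0.24). Of 22 receptors and transcription factors 21 were scored and 0 passed. The receptors Ahr, Nr1i2 and Nr1i3 differed by 0.34, −0.15 and −0.13, and Hnf4a by 0.11. Cebpb scored 13.41, 12.72 and 12.69 in Maf1 KO livers versus 12.11, 12.22 and 12.11 in wild-type livers without overlap, a difference of 0.80 (SE 0.25, adjusted p = 0.222). Of the clock output factors, 5 of 6 were scored and 0 passed, and Dbp, known to drive Cyp2a and Cyp2c genes through the day, differed by −0.96 (SE 0.28, adjusted p = 0.146). Of 8 pericentral genes outside these families 7 lay above 0 in total RNA (50.4% of all genes). Of 10 periportal genes 7 lay below (49.6% of all genes), with 0 passing. In footprints as deposited 4 pericentral genes lay above 0 (21.7% of all genes) and 9 periportal genes below (78.3%). Summed pericentral total RNA was 15.62 to 16.39 in Maf1 KO livers versus 15.60 to 15.82 in wild-type livers. After centering it was 6.87 to 7.04 in Maf1 KO livers versus 6.67 to 6.78 in wild-type livers, without overlap. Taken singly, 6.92% of all genes lay above without overlap on that scale. Centered pericentral footprints overlapped, at 7.56 to 7.96 in Maf1 KO livers versus 7.42 to 7.57 in wild-type livers. Centered periportal total RNA overlapped too, at 9.57 to 9.63 in Maf1 KO livers versus 9.33 to 9.99 in wild-type livers. Among 23 P450 genes of other families, 3 passed in total RNA, where 0.276% of all genes did. All 3 were lower and of subfamily Cyp4a, the fatty acid hydroxylases under PPARA: Cyp4a10 (−1.34), Cyp4a31 (−1.27) and Cyp4a32 (−1.13). After centering 0 of them passed (0.0173% of all genes). The words that these 3 genes share were not counted, so they may not be separate measurements. Of 13 male-biased liver genes outside families 1 to 3, 10 lay below 0 in total RNA (49.6% of all genes). Of 11 female-biased genes 4 were scored and 3 lay above 0 (50.4% of all genes). In both lists 0 passed and the summed levels of the genotypes overlapped.

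Markers of other liver cells had higher mean scores in total RNA of Maf1 KO livers. All 9 Kupffer cell and macrophage markers scored lay above 0 in total RNA, their summed level being 14.46 to 15.01 in Maf1 KO livers versus 14.14 to 14.23 in wild-type livers (log2), and Marco passed with a difference of 2.21 as deposited (adjusted p 0.195 after centering). All 6 stellate markers and all 6 sinusoidal endothelial markers also lay above 0 in total RNA (50.4% of all genes). In footprints as deposited, all 9 Kupffer cell and macrophage markers, 3 stellate markers and 2 sinusoidal endothelial markers did (21.7% of all genes). Of the 8 hepatocyte markers, 6 lay above 0 in total RNA and 1 in footprints as deposited. The median difference in total RNA was 0.06 for hepatocyte, 0.60 for Kupffer cell and macrophage, 0.44 for stellate and 0.17 for sinusoidal endothelial markers. The summed total RNA of the hepatocyte markers overlapped, at 21.57 to 21.84 in Maf1 KO livers versus 21.13 to 21.98 in wild-type livers. In these bulk extracts fewer cells of a type and less RNA per cell cannot be told apart, and the part of other cells in the P450 values was not tested.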

How the data were processed

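Mouse (mm9) and fly (dm6) tags were separated by the authors, who discarded those matching both genomes, aligned what was left to coding sequences with up to 1 mismatch, removed rRNA and small cytoplasmic RNA, and normalized to total tags and with TMM from edgeR. The deposited values are log2 normalized counts per transcript, called scores. The study's methods add a factor from the fly material on the log2 scale, and the header does not say whether it is included. No source used here names the aligner, and the depth is unknown. Scores of 26260 transcripts were averaged to 11587 genes. Maf1 KO and wild-type livers were compared with limma 3.58.1 in R 4.3.3 (trended prior, genotype as the only term, Benjamini-Hochberg over all genes, 0.05), and translation efficiency was taken within a mouse. On the deposited scale the fitted prior gave genes of like level the same SE. The fit was tested on simulated data. Shared words, coding lengths and coordinates came from GENCODE vM1 (41 of 42 genes matched). Alternatives were centering, quantile normalization, a filter below the 0.25 quantile, the top transcript, common and robust priors, a limit of 0.1 on adjusted p, a block on replicate number, and leaving out mice. Members with under 10% shared words, and centering with each mouse left out, were added after seeing the data. The members and gene lists were chosen with earlier results of these data known. Named genes were the most abundant of each subfamily, the 3 highest and lowest centered differences per measure and wild-type translation efficiencies among members above the median of all genes, and genes of known regulation, with others given by counts or as near copies.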

Additional observations from a re-analysis of the deposited data

How the results depend on the processing

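No member passed limma's threshold in total RNA or translation efficiency under any alternative run, nor in footprints except with the replicate block. The members' median differences kept within the spread between mice under the filter, the top transcript and members with under 10% shared words. Under centering and quantile normalization the median went from −0.06 to −0.08 and −0.01 in total RNA. It turned sign in footprints (−0.0050 to 0.18 and 0.21) and in translation efficiency (−0.11 to 0.10 and 0.05). The median of all genes turned sign in these 2 measures too. With KO1 and WT3 left out the members' median was −0.30 in total RNA (all genes −0.23), 0.24 for footprints (all genes 0.16) and 0.46 for translation efficiency (all genes 0.40). The numbers 1 and 2 are shared by both genotypes. Deviations of same-numbered mice correlated at 0.23 and 0.27 in total RNA, −0.06 and 0.10 in footprints and −0.10 and 0.10 in translation efficiency. Mice of different number were not compared in this way, so these values cannot tell whether the numbers pair the mice. With that replicate block, 2 members passed in footprints, Cyp3a11 (0.85, adjusted p = 0.0117) and Cyp3a44 (0.78, adjusted p = 0.0347), and Cyp2c69 and Cyp2c70 in translation efficiency (0.0272 and 0.12), Cyp2c70 in total RNA (−0.16) and Cyp3a13 in total RNA (0.0749) turned sign. Without KO1 and WT3 the sign turned for Cyp2c67 and Cyp2c69 footprints (0.0426 and 0.0650), Cyp2c70 total RNA (−0.20) and Cyp2c69, Cyp2c70 and Cyp3a57 translation efficiency (0.40, 0.35 and 0.14). Quantile normalization turned Cyp2c69 (0.014) and Cyp3a13 (0.081) and centering Cyp2c70 (−0.0035) in total RNA. The cause was not tested.

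Leaving out 1 mouse at a time turned the sign of some genes. In total RNA the ranges were −0.37 to 0.12 for Cyp2c67, −0.31 to 0.12 for Cyp2c69, −0.11 to 0.16 for Cyp2c70, −0.14 to 0.0108 for Cyp2f2, −0.31 to 0.25 for Cyp2r1 and −0.11 to 0.0734 for Cyp3a13. In footprints they were −0.0587 to 0.68 for Cyp2a5, −0.22 to 0.74 for Cyp3a11, −0.15 to 0.70 for Cyp3a25 and −0.10 to 0.72 for Cyp3a44, and in translation efficiency −0.71 to 0.14 for Cyp2c69, −0.79 to 0.12 for Cyp2c70 and −0.15 to 0.96 for Cyp2d12. The number of reads is unknown, so no limit from depth can be given, and the offsets between libraries limit what 3 mice against 3 can show.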
